A study of Mus musculus with 281 samples.

Results

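Among granulocyte-monocyte progenitors sorted as Ly6C+GMP, some cells carried mRNA of Gfi1 and others did not, and the transcriptomes of both kinds were set side by side. Gfi1-detected cells were those with at least 1 TPM (a length-corrected share of a cell's mRNA, the same total for each cell) of Gfi1, and Gfi1-undetected cells those below. The 95 Ly6C+GMP cells of one unbroken stretch of sample titles were used, of 281 cells in the series, and 19 of them were Gfi1-detected and 76 Gfi1-undetected. The marrow donors were mice of the inbred C57BL/6 strain. Both kinds passed the same gate: free of lineage markers and Sca-1, carrying c-Kit, CD34 and the surface protein Ly6C, and high in the Fc receptors CD16/32. Other cells of the series, used here only where stated, were labelled CMP, Ly6C-GMP, proneu, preNeu and tpMo. Age, sex and treatment are not stated in the sources used here. Each cell was profiled by SMART-seq2, a plate method that reads full-length transcripts of single cells. Because no animal or culture is named, all 95 cells count as 1 sample, so no test was made and every SD below is the spread from cell to cell. The groups were chosen by the measured Gfi1 TPM of the same cells, so all values are a description.

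Gfi1 is a zinc-finger transcriptional repressor. Its N-terminal SNAG domain recruits the demethylase Kdm1a with its partner Rcor1, and histone deacetylases, to the genes it binds. In the marrow it is required for neutrophil formation and is known for restraining the monocyte programme, in part by repression of Irf8. Irf8 in turn is a factor of the monocyte and dendritic cell lineages, and Cebpe is a factor needed for the later steps of neutrophil and eosinophil maturation.

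Gfi1 (chromosome 5, 107716657 to 107726036, minus strand of GRCm38) ranged from 1.14 to 216.89 TPM in the Gfi1-detected cells, with a median of 65.97 TPM, against 0 TPM in 73 of the Gfi1-undetected cells. Most of the detected cells lay well above the limit: 16 had at least 10 TPM, and the lowest values inside it were 1.14, 1.70 and 7.46 TPM. The highest values outside it were 0.80, 0.72 and 0.71 TPM, each in 1 cell. These values set the groups and are no result. The exons of Gfi1 share bases with A430072P03Rik on the opposite strand, and the kit does not mark strand. That gene was above the limit in 1 of 19 Gfi1-detected cells and 2 of 76 Gfi1-undetected cells.

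The number of genes detected per cell, the only trace of depth that TPM leaves, was similar but not equal. It ran from 3951 to 5479 with a median of 5043 in Gfi1-detected cells, and from 3951 to 5719 with a median of 4818 in Gfi1-undetected cells. The mitochondrially encoded share of TPM had medians of 4.0% in Gfi1-detected and 4.46% in Gfi1-undetected cells, and the 20 most abundant genes took 20.4% and 17.5% in Gfi1-detected and Gfi1-undetected cells. Their part in the differences was not tested.

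Differences are given as the mean of log2(TPM + 1) over Gfi1-detected cells minus that over Gfi1-undetected cells. This scale understates the difference of low genes. For genes undetected in many cells of 1 group it can exceed the log2 ratio of mean TPM. For Pglyrp1, for example, the 2 measures gave 4.53 and 2.05. Over the 9433 genes detected in at least 10 of the 95 cells, 823 (8.72%) were higher by at least 1 log2 unit in Gfi1-detected cells and 723 (7.66%) were lower, with a median difference of −0.01. As a log2 ratio of mean TPM, 687 genes were higher and 1357 lower, so that the balance between the directions turned. Differences past 3 units were rare, with 15 genes higher and 16 lower. Genes listed here for neutrophils were among the furthest at one end, and genes listed for monocytes at the other, as the plot of differences against level shows. Both ends also held genes outside these lists.

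**Figure D1:**
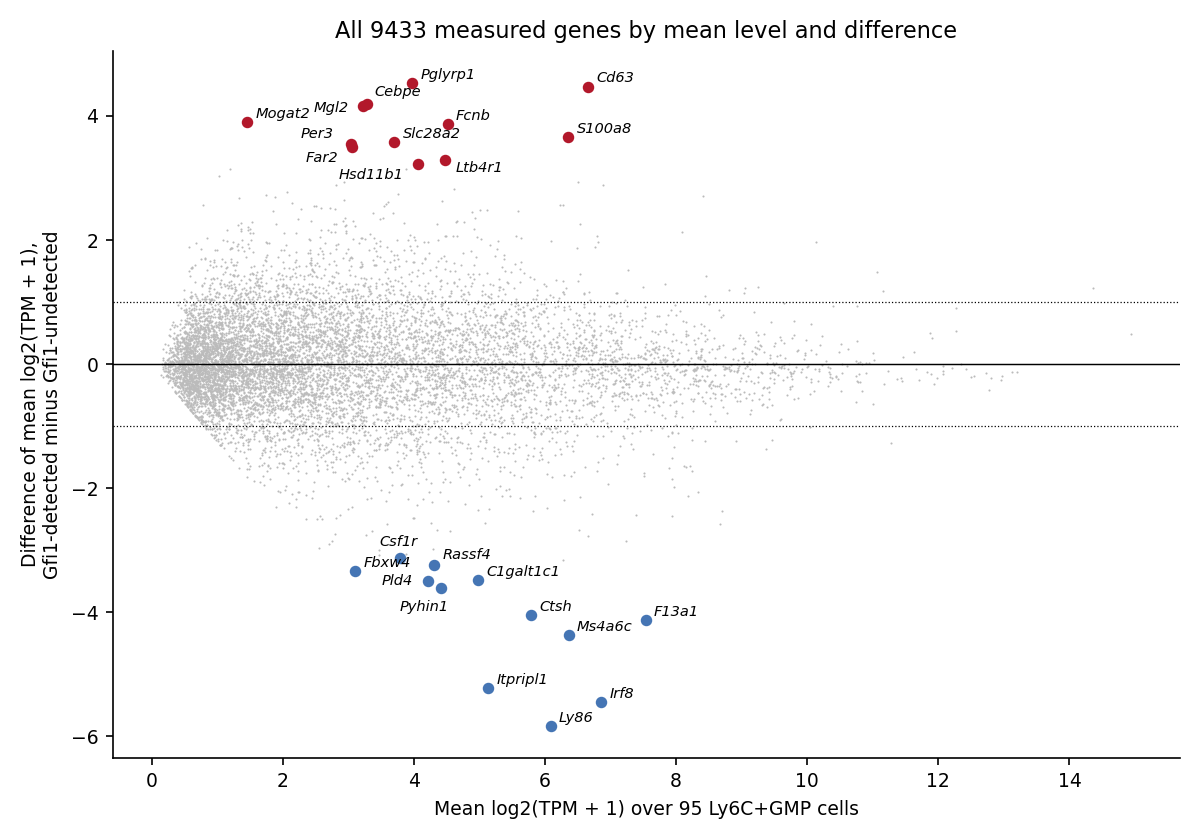
Difference of mean log2(TPM + 1), Gfi1-detected minus Gfi1-undetected cells, against mean log2(TPM + 1) over the 95 Ly6C+GMP cells. Each grey point is 1 of 9433 genes, dotted lines mark 1 log2 unit, and the named genes are the 12 furthest each way under the naming rule: Pglyrp1 lies highest at 4.53 and Ly86 lowest at −5.83.

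Among the regulators, Cebpe stood highest with Gfi1. Cebpe (chromosome 14, 54710360 to 54712174, minus strand) had a median of 137 TPM (0 to 379) in Gfi1-detected cells and of 0 TPM (0 to 447) in Gfi1-undetected cells, a difference of 4.19. Its means of 144 TPM in Gfi1-detected and 37.8 TPM in Gfi1-undetected cells give a log2 ratio of 1.93. It was detected in 18 of 19 Gfi1-detected cells (94.7%, exact 95% interval 73.97 to 99.9%) and in 34 of 76 Gfi1-undetected cells (44.7%, 33.3 to 56.6%). Intervals like these cover counting error only. Every Gfi1-detected cell but 1 thus carried Cebpe, while the Gfi1-undetected cells were divided between carriers and non-carriers.

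Per3, a period gene of the circadian clock, had a median of 85.4 TPM in Gfi1-detected cells, against 0.54 TPM in Gfi1-undetected cells, a difference of 3.54. Only 2 of the 76 Gfi1-undetected cells reached the median of the Gfi1-detected ones. Myb, a factor of proliferating progenitors, averaged 242 ± 138 TPM (SD, n = 19 cells) in Gfi1-detected cells and 91.5 ± 75.5 TPM (n = 76) in Gfi1-undetected cells, a difference of 1.98. Ets1 differed by 2.01 but was found in 8 of 19 Gfi1-detected and 9 of 76 Gfi1-undetected cells.

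Of the 14 neutrophil regulators listed, 10 passed the filter, and 5 of those were higher, 1 lower and 4 within 1 unit, where 8.72% of all genes were higher and 7.66% lower. Their median difference was 1.08, where that over all genes was −0.01. This list and those below were chosen with earlier results of these data known. Cebpe and Per3 of this list are also among the 12 highest genes of the same contrast. The list counts therefore describe these cells and are no independent support. Besides Cebpe, Per3, Myb and Ets1 the higher one was Etv6, at 1.19. The lower one was Runx1, a factor of all blood progenitors, at −1.12. Cebpa, which acts at the entry to the myeloid lineage, was sparse in both groups, with 3 of 19 Gfi1-detected and 18 of 76 Gfi1-undetected cells and a difference of −0.52. Csf3r, the receptor for granulocyte colony-stimulating factor, differed by 0.44. Spi1, which encodes PU.1, differed by 0.22, and its means of 328 ± 180 TPM in Gfi1-detected cells and 278 ± 170 TPM in Gfi1-undetected cells lay within the spread of either group.

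Irf8 showed the reverse pattern. Irf8 (chromosome 8, 120736358 to 120756694, plus strand) had a median of 2.92 TPM (0 to 215) in Gfi1-detected cells and of 482 TPM (0 to 1353) in Gfi1-undetected cells, a difference of −5.45. No Gfi1-detected cell reached the median of the Gfi1-undetected cells, and 59 of 76 Gfi1-undetected cells lay above the highest Gfi1-detected one. The mean in Gfi1-detected cells was 26.8 TPM, and 16.3 TPM without its highest cell, against 496 TPM in Gfi1-undetected cells.

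At the 1 TPM limit Irf8 was still called in 13 of 19 Gfi1-detected cells (68.4%) and 72 of 76 Gfi1-undetected cells (94.7%), because many Gfi1-detected cells held traces of it. At 10 TPM or more it was present in 4 of 19 Gfi1-detected and 67 of 76 Gfi1-undetected cells. The Gfi1-detected cells with Irf8 above 20 TPM numbered 3, at 77.6, 158 and 215 TPM. The highest of these was also the cell highest in Gfi1, at 217 TPM, and it carried 182 TPM of Cebpe and 205 TPM of Csf1r. High Gfi1 and moderate Irf8 were both found in this cell. The part of doublets, which were not called, was not tested.

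Other regulators of the monocyte and dendritic lineages differed less or were rare. Of 17 listed, 10 passed the filter, with 1 higher (8.72% of all genes), 3 lower (7.66% of all genes) and 6 within 1 unit. The median difference was −0.36, and ran from −0.56 to −0.19 with 1 Gfi1-detected cell left out. Irf5, an interferon regulatory factor of monocytes and macrophages, was detected in 0 of 19 Gfi1-detected cells and 23 of 76 Gfi1-undetected cells, a difference of −1.70. Klf4, a monocyte factor, was detected in 0 of 19 and 15 of 76, and differed by −0.90. Zeb2, a repressor expressed in many myeloid cells, differed by −0.69.

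Genes reported elsewhere as repressed by Gfi1 did not share a direction beyond Irf8 and Csf1r. Of 12 listed, 7 passed the filter, of which 0 were higher, 2 lower and 5 within 1 unit, where 8.72% of all genes were higher and 7.66% lower. Their median difference was −0.35, and ran from −0.62 to −0.32 with 1 Gfi1-detected cell left out. The inhibitors of DNA binding Id1 and Id2 differed by −0.10 and 0.27, and the stem cell factors Meis1 and Hoxa9 by −0.63 and 0.06. Egr1, an immediate early factor, was at 0 TPM in all 95 cells. The proteins that Gfi1 works with were transcribed in both groups: of 10 partner genes 9 passed the filter, with 0 higher and 1 lower, near the 7.66% of all genes that were lower. The lower one was the deacetylase gene Hdac3 at −1.01. Rcor1 differed by 0.65. Hdac1 differed by 0.97 on this scale, but its mean of 225 TPM in Gfi1-detected cells was below that of 238 TPM in Gfi1-undetected cells.

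**Figure D2:**
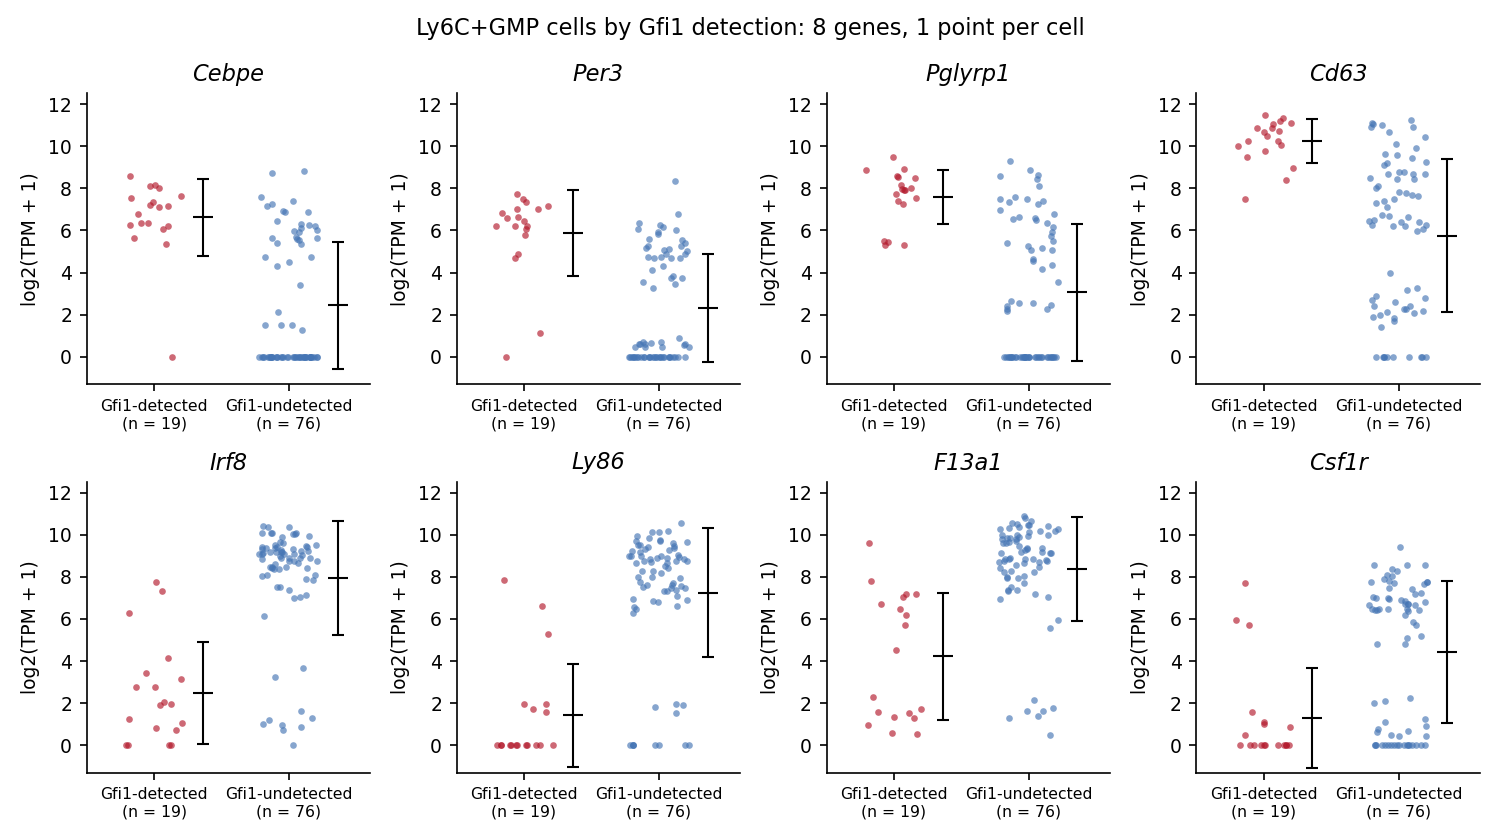
log2(TPM + 1) of 4 genes higher (top row) and 4 genes lower (bottom row) in Gfi1-detected than in Gfi1-undetected Ly6C+GMP cells. Each point is 1 cell, and the bar beside each group is the mean ± SD over its cells. Cebpe is above 0 in all Gfi1-detected cells but 1, and Irf8 and Ly86 fall to a low band in most of them while the Gfi1-undetected cells hold both bands.

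Promoter sequences of Irf8 and Ms4a6c are shown because they were the 2 of the 12 lowest genes whose promoter held AAATCA. This string is part of the longer sites that Gfi1 is known to favour. The promoter of Pglyrp1, the gene furthest in the other direction, is shown for comparison. They are RefSeq sequences of GRCm38.p6, from 250 bases before to 50 after the start site. AAATCA and its reverse complement TGATTT were searched on both strands, with no other motif, and matches are in capitals. The shorter AATC within it was not counted. On either strand AATC occurs in promoters of several higher genes, among them Cd63, Mgl2, Slc28a2, Per3, Hsd11b1, S100a8 and Fcnb. It is not in that of Pglyrp1. The counts below thus hold for the string searched only.
Irf8 (chr8:120736108-120736407, plus strand): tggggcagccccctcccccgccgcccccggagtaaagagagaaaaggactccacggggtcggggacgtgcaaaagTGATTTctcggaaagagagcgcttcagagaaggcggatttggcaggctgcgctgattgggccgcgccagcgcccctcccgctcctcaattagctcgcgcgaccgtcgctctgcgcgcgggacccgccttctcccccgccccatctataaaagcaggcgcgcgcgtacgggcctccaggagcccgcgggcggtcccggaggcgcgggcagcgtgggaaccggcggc
Ms4a6c (chr19:11469118-11469417, plus strand): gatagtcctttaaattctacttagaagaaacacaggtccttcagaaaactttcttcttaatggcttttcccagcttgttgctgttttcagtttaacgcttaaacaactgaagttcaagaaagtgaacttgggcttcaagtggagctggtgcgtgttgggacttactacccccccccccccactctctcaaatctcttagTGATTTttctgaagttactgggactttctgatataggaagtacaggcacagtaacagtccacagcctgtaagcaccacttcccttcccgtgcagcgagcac
Pglyrp1 (chr7:18884440-18884739, plus strand): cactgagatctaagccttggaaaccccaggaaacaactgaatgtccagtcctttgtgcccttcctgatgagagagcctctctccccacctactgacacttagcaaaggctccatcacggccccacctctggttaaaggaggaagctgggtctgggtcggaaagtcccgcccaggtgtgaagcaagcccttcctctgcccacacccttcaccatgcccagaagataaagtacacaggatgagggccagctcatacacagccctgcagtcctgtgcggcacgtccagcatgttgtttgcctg
The match began 175 bases before the start in Irf8 and 51 bases before it in Ms4a6c. Among the 12 genes highest in Gfi1-detected cells, 10 had promoters in the table, with 10 start sites, of which 0 held the motif. Among the 12 lowest, 7 had promoters, with 10 start sites, of which 3 held it. These 3 start sites belong to 2 genes, because Irf8 has 2 start sites in the set. Counted by gene, 2 of the 7 held it, beside 4295 of 27025 genes with promoters. Over all 32851 start sites the share was 13.997%. A match describes letters in this window and nothing more.

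Of the 20 listed genes of primary granules, the first granules to form in neutrophil progenitors, 18 passed the filter. Of these 9 were higher, 2 lower and 7 within 1 unit, beside 8.72% higher and 7.66% lower of all genes, and their median difference was 1.03. The higher ones included Ms4a3 (1.49), Serpinb1a (1.15) and Cpne3 (1.13), which do not encode granule contents. The count is therefore not one of granule genes alone. Cd63, a tetraspanin of granule and lysosome membranes (chromosome 10, 128900989 to 128912822, plus strand), had a median of 1407 TPM (177 to 2815) in Gfi1-detected cells and of 88.7 TPM (0 to 2461) in Gfi1-undetected cells, a difference of 4.47. In 45 of the 76 Gfi1-undetected cells it was below the lowest Gfi1-detected cell. Prss57, a granule serine protease, averaged 985 ± 405 TPM in Gfi1-detected cells and 370 ± 291 TPM in Gfi1-undetected cells. Nkg7, a granule membrane protein gene, averaged 3685 ± 1727 TPM in Gfi1-detected and 1372 ± 1024 TPM in Gfi1-undetected cells.

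The most abundant granule proteases were present in every cell and differed in amount only. Elane, which encodes neutrophil elastase, averaged 43273 ± 11332 TPM in Gfi1-detected cells and 22328 ± 11442 TPM in Gfi1-undetected cells, a difference of 1.22. Mpo, the peroxidase gene, averaged 42521 ± 10022 TPM in Gfi1-detected and 31044 ± 9532 TPM in Gfi1-undetected cells (0.49), and Ctsg, the cathepsin G gene, 8412 ± 1821 TPM in Gfi1-detected and 4670.1 ± 1646 TPM in Gfi1-undetected cells (0.91). Ms4a3, which encodes a tetraspan protein of myeloid progenitors, averaged 5040 ± 1348 TPM in Gfi1-detected and 2345 ± 1335 TPM in Gfi1-undetected cells (1.49).

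The lower genes of the list were Ctsc at −2.18 and Slpi at −1.09. Ctsc encodes the protease that activates the granule serine proteases, and it averaged 80.1 ± 93.1 TPM in Gfi1-detected cells and 220 ± 182 TPM in Gfi1-undetected cells. The summed TPM of the 18 genes ran from 61281 to 154104 in Gfi1-detected cells and from 14022 to 138907 in Gfi1-undetected cells, so the ranges overlapped widely.

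Secondary and late granule genes, a list of later neutrophil stages, were divided. Pglyrp1, a peptidoglycan recognition protein stored in granules (chromosome 7, 18871331 to 18890459, plus strand), was detected in 19 of 19 Gfi1-detected cells with a median of 244 TPM (38.2 to 712), and in 41 of 76 Gfi1-undetected cells with a median of 4.12 TPM (0 to 634). Its difference of 4.53 was the largest positive one among the named genes. Fcnb, which encodes ficolin B, had medians of 364 and 4.07 TPM in Gfi1-detected and Gfi1-undetected cells and a difference of 3.87. It was uneven within the Gfi1-detected cells, from 0 to 4839 TPM.

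S100a8, whose protein binds calcium, had a median of 869 TPM in Gfi1-detected cells and 41.1 TPM in Gfi1-undetected cells (3.65). Its mean in Gfi1-undetected cells was 605 TPM and 359 TPM without the highest cell. The leukotriene B4 receptor gene Ltb4r1 differed by 3.30.

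The classical secondary granule genes did not separate the groups. Ngp had a median of 35.96 TPM (2.06 to 107) in Gfi1-detected cells and of 33.6 TPM in Gfi1-undetected cells, where 1 cell reached 46094 TPM. That cell, which was Gfi1-undetected, also had 418 TPM of Cebpe, 128 TPM of Irf8 and 19117 TPM of S100a8. Ltf, Camp and Chil3 differed by 0.12, 0.44 and −0.13. Of the 27 genes 23 passed the filter, with 9 higher, 3 lower and 11 within 1 unit, beside 8.72% and 7.66% of all genes higher and lower. Their median was 0.24. The higher ones included Ltb4r1, Syne1 (1.37) and Adpgk (1.28), which do not encode granule contents, so the count is not one of granule genes alone. Ngp, Camp, Ltf and Lcn2 (−0.57) were within 1 unit. The lower ones were Cybb (−2.17), Lyz2 (−1.22) and Ly6g (−1.21). Cybb, the catalytic subunit of the phagocyte oxidase, and the lysozyme gene Lyz2 are also expressed by monocytes.

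**Figure D3:**
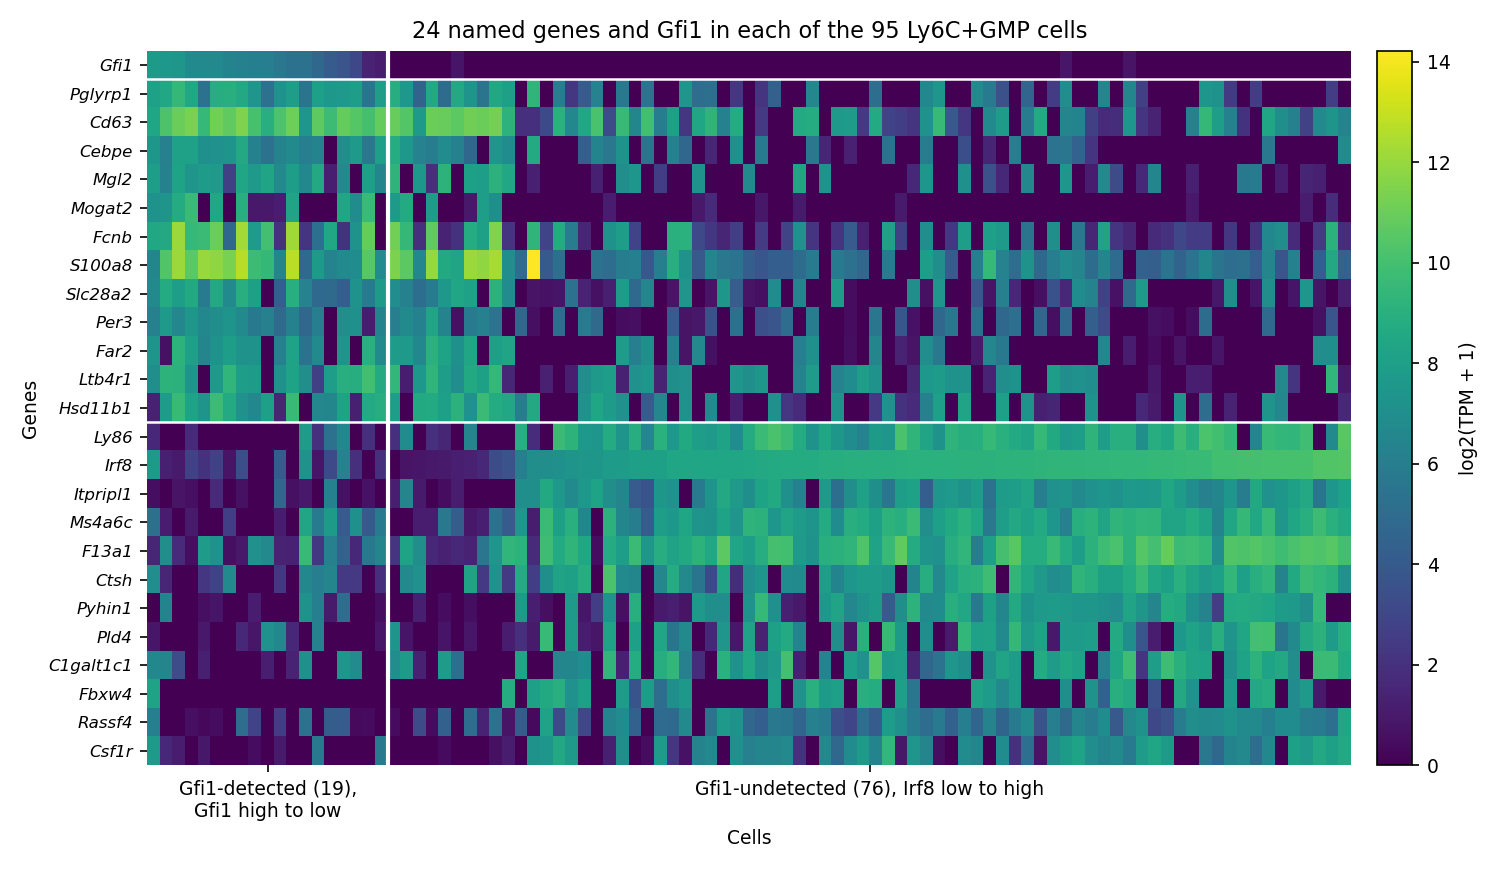
log2(TPM + 1) of Gfi1 and the 24 named genes (rows) in each of the 95 Ly6C+GMP cells (columns). The 19 Gfi1-detected cells stand left, ordered by Gfi1, and the 76 Gfi1-undetected cells right, ordered by Irf8; the 9 Gfi1-undetected cells below 10 TPM of Irf8, at the left edge of their block, have most of the upper genes and few of the lower ones.

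Monocyte genes were lower in Gfi1-detected cells, and this was the list with the most members past 1 unit. Ly86, which encodes the MD-1 partner of a Toll-like receptor homologue (chromosome 13, 37345208 to 37419036, plus strand), had a median of 0 TPM (0 to 232) in Gfi1-detected cells and of 330 TPM (0 to 1479) in Gfi1-undetected cells, a difference of −5.83. Of the 76 Gfi1-undetected cells, 44 lay above the highest Gfi1-detected cell. F13a1, the coagulation factor XIII A chain (chromosome 13, 36867178 to 37050244, minus strand), had medians of 22.3 and 516 TPM in Gfi1-detected and Gfi1-undetected cells (−4.13). It was not lost from the Gfi1-detected cells, of which 16 of 19 had at least 1 TPM.

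Csf1r, the receptor for the monocyte growth factor M-CSF, was detected in 6 of 19 Gfi1-detected cells and 51 of 76 Gfi1-undetected cells (−3.13). Ms4a6c, a tetraspan membrane protein gene whose family members are near copies and may share reads, was at 1.17 TPM in the median Gfi1-detected cell and 299 TPM in the median Gfi1-undetected cell (−4.38). The lysosomal nuclease gene Pld4 differed by −3.50, the chemokine receptor gene Ccr2 by −2.76 and the cathepsin S gene Ctss by −2.86. Ctss was at most 2.96 TPM in any Gfi1-detected cell, against up to 886 TPM in Gfi1-undetected cells.

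Of the 31 monocyte genes 25 passed the filter, with 0 higher, 17 lower and 8 within 1 unit, and the median difference was −1.43. The summed TPM of the list ran from 7455 to 13793 in Gfi1-detected cells and from 4286 to 24781 in Gfi1-undetected cells. The share that was lower, 17 of 25, stood beside 7.66% of all measured genes. Among the members within 1 unit were Ly6c2, which encodes the gated Ly6C, at −0.19, the C-type lectin gene Clec12a at 0.98 and the chemokine gene Ccl9 at −0.09. Vcan, a proteoglycan gene of monocytes, was at 0 TPM in all 95 cells.

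Other genes at the extremes had no place in these lists. Among the higher ones, Mgl2, a galactose-type lectin, had medians of 203 TPM in Gfi1-detected and 0 TPM in Gfi1-undetected cells (4.17). Mogat2, an enzyme of triglyceride synthesis, was detected in 11 of 19 Gfi1-detected and 12 of 76 Gfi1-undetected cells (3.90). The nucleoside transporter gene Slc28a2 (3.59), the fatty acyl-CoA reductase gene Far2 (3.50) and Hsd11b1 (3.22), whose enzyme reactivates glucocorticoids, completed the higher genes.

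Among the lower ones, Itpripl1 was detected in 3 of 19 Gfi1-detected and 68 of 76 Gfi1-undetected cells, with medians of 0.50 and 146 TPM and a difference of −5.23. The lysosomal protease gene Ctsh (−4.05), the interferon-inducible family gene Pyhin1 (−3.61), the glycosylation chaperone gene C1galt1c1 (−3.48), Rassf4 (−3.24) and Fbxw4 (−3.34) followed. Fbxw4 was detected in 1 of 19 Gfi1-detected cells, so that the mean of that group rests on a single cell, and in 39 of 76 Gfi1-undetected cells. Of the 24 named genes 23 were found in the annotation, and 6 of these, Mogat2, Far2, Ms4a6c, F13a1, Fbxw4 and Csf1r, share exon bases with another gene, whose reads cannot be separated.

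The Gfi1-undetected cells were not of 1 kind. Of the 76, 47 had at least 10 TPM of Irf8 and less than 10 TPM of Cebpe, 20 had at least 10 TPM of both, 8 had Cebpe without Irf8 at that limit, and 1 had neither. Of the 19 Gfi1-detected cells, 14 had Cebpe without Irf8, 4 had both, 0 had Irf8 without Cebpe and 1 had neither. The 8 Gfi1-undetected cells with Cebpe and without Irf8 had a median of 1920.1 TPM of Cd63, 272 TPM of Pglyrp1 and 2.32 TPM of Ly86, levels inside the range of the Gfi1-detected cells. The 20 cells with both factors had medians of 121 TPM of Cd63, 10.8 TPM of Pglyrp1 and 201 TPM of Ly86. Whether Gfi1 mRNA was absent from the 8 cells or missed at this depth cannot be told apart.

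Transcripts of the gated proteins differed too, although both groups passed the same gate. Kit averaged 64.2 TPM in Gfi1-detected cells and 55.3 TPM in Gfi1-undetected cells. It was detected in 19 of 19 Gfi1-detected cells, against 59 of 76 Gfi1-undetected cells (1.12). Cd34, a surface protein of early progenitors (chromosome 1, 194938819 to 194961279, plus strand), had medians of 5.78 TPM in Gfi1-detected and 198 TPM in Gfi1-undetected cells (−2.13); its exons share bases with Gm16897 on the opposite strand. Fcgr3, which encodes CD16, averaged 1432 and 1056 TPM in Gfi1-detected and Gfi1-undetected cells (0.69), and Ly6a, which encodes the excluded Sca-1, 6.10 and 16.8 TPM (−1.41).

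Of 28 stem and multipotent progenitor genes 10 passed the filter, with 1 higher (8.72% of all genes), 3 lower (7.66% of all genes) and 6 within 1 unit. The median was −0.43. Cd34, Ly6a and the signalling lymphocyte molecule gene Cd48 (−1.80) were the lower ones, and Kit the higher one. The summed TPM of the list ran from 114 to 1474 in Gfi1-detected cells and from 227 to 2978 in Gfi1-undetected cells, and its part in the other differences was not tested.

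Most listed markers of other lineages were too rare to pass the filter. Of 22 erythroid and megakaryocyte genes 4 passed the filter (median 0.07; summed level 0 to 274 TPM in Gfi1-detected and 0 to 375 TPM in Gfi1-undetected cells). Of 15 basophil and mast cell genes 4 passed, and Fcer1a, Prss34, Cma1 and Cyp11a1 were at 0 TPM in all 95 cells. Hdc of that list, which encodes the histamine-producing enzyme and is also expressed by other myeloid cells, was higher by 2.57, at 484 ± 299 TPM in Gfi1-detected and 207 ± 212 TPM in Gfi1-undetected cells. Of 10 eosinophil genes 1 passed, the receptor gene Siglecf, detected in 8 of 19 Gfi1-detected and 14 of 76 Gfi1-undetected cells, while Epx was below 1 TPM in all 95. A list of 13 genes for surface proteins used to sort any of the labels had 12 that passed. Of these 2 were higher, 5 lower and 5 within 1 unit (median −0.27), beside 8.72% higher and 7.66% lower of all genes. Most of the called ones were outside the Ly6C+GMP gate.

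In the dendritic cell list 8 of 18 genes passed, with 1 higher, 2 lower and a median of −0.16. For this list and the lymphoid one, the shares over all genes were 8.72% higher and 7.66% lower. Siglech and Xcr1 were below 1 TPM in all cells. H2-Ab1, a class II chain gene, was the higher one, in 6 of 19 Gfi1-detected and 8 of 76 Gfi1-undetected cells. In the lymphoid list 3 of 18 passed, with a median of 0.43 that ran from 0.13 to 0.65 with 1 Gfi1-detected cell left out. Ighm, the heavy chain constant region gene, was lower at 357 ± 319 TPM in Gfi1-detected cells and 764 ± 420 TPM in Gfi1-undetected cells (−2.37), and Nkg7, also in the granule list, was higher.

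The cell cycle, ribosome biogenesis, immediate early, interferon response and mitochondrially encoded lists had medians within 1 unit of 0. Of 30 mitosis genes, all measured, 2 were higher, 2 lower and 26 within 1 unit, with a median difference of 0.0012. The 31 DNA replication genes, all measured, had a median of −0.20 (−0.34 to −0.02 with 1 Gfi1-detected cell left out) and held 0 higher and 3 lower members. The lower replication genes were Mcm4 (−1.48), Gins1 (−1.18) and Ccne2 (−1.06), which act in the replicative helicase and at S phase entry. The ribosome biogenesis list had a median of 0.07, with 4 higher and 0 lower of 24 and Myc at 1.14. The immediate early and heat shock list had a median of −0.04 (1 higher, 1 lower of 12), the interferon response list −0.10 (1 higher, 1 lower of 9), and the mitochondrially encoded list −0.31 (0 higher, 1 lower of 10). These counts stand beside the 8.72% higher and 7.66% lower of all genes.

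**Figure D4:**
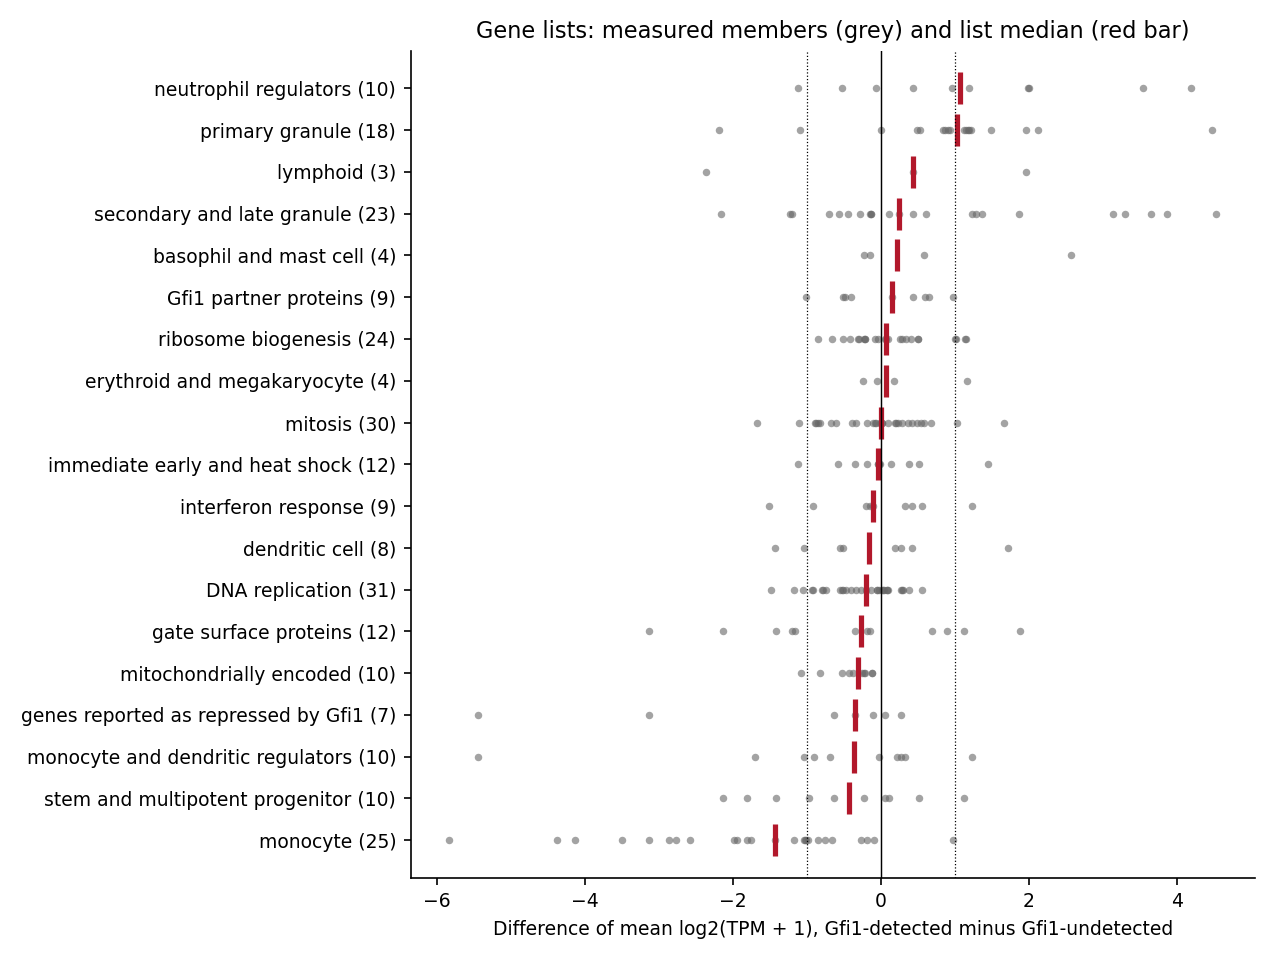
Differences of mean log2(TPM + 1), Gfi1-detected minus Gfi1-undetected Ly6C+GMP cells, for the measured members of each gene list with at least 3 of them. Grey points are genes, red bars the list medians, dotted lines 1 log2 unit, and the number of measured members stands in brackets. The neutrophil regulator (1.08) and primary granule (1.03) medians lie at one end and the monocyte median (−1.43) at the other.

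The same split was then made in cells that the rule did not use and that share no cell with the first comparison. In cells labelled proneu, for which the labels give no gate, 12 of 22 were Gfi1-detected. Of the 12 genes highest in Gfi1-detected Ly6C+GMP cells 6 were above 0 there, and of the 12 lowest 3 were below 0, with median differences of −0.04 and 0.04. For comparison, 50.5% of all genes were above 0 and 47.3% below. Several of the 12 lower genes were near 0 TPM in both groups of proneu cells and had no room to be lower, Fbxw4 at 0 TPM in all of them and Pyhin1 at means of 0.309 TPM in Gfi1-detected and 0.319 TPM in Gfi1-undetected cells, so their count does not show whether the pattern is absent. Cebpe averaged 83.7 ± 68.8 TPM in the 12 Gfi1-detected and 61.9 ± 66.5 TPM in the 10 Gfi1-undetected proneu cells, and Irf8 averaged 1.23 and 0.89 TPM. Cd63 averaged 1785 ± 496 TPM in Gfi1-detected and 1852 ± 1021 TPM in Gfi1-undetected proneu cells. Of the 24 genes, the one with the largest difference in the same direction was Mogat2 at 3.59, detected in 11 of 12 Gfi1-detected and 4 of 10 Gfi1-undetected proneu cells.

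In Ly6C-GMP cells, which passed the same gate but without Ly6C, 7 of 45 were Gfi1-detected. Of the 12 higher genes 9 were above 0 and of the 12 lower ones 10 were below 0, with medians of 0.80 and −1.17, where 52.3% of all genes were above 0 and 47.5% below. Past 1 unit were 5 of the higher genes, beside 18.3% of all genes, and 8 of the lower ones, beside 12.3%. Pglyrp1 (3.93), Cebpe (3.07), Ltb4r1 (3.01), Cd63 (2.60) and Per3 (1.93) were higher, and Ms4a6c (−3.02) and Irf8 (−1.98) lower. Fcnb and S100a8 went the other way, at −1.23 and −2.28, and both were detected in 1 of the 7 Gfi1-detected Ly6C-GMP cells. Mgl2 was also below 0, at −0.12. Of the lower genes C1galt1c1 (1.18) and Itpripl1 (0.55) went the other way.

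The Ly6C-GMP cells carried titles of 2 prefixes, whose meaning is not stated. Of the higher and lower genes, 7 and 9 kept the direction among 5 Gfi1-detected and 25 Gfi1-undetected cells of one prefix, and 9 and 10 among 2 Gfi1-detected and 13 Gfi1-undetected cells of the other. The median number of genes detected was higher in Gfi1-detected than in Gfi1-undetected cells of both labels, and its part was not tested.

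**Figure D5:**
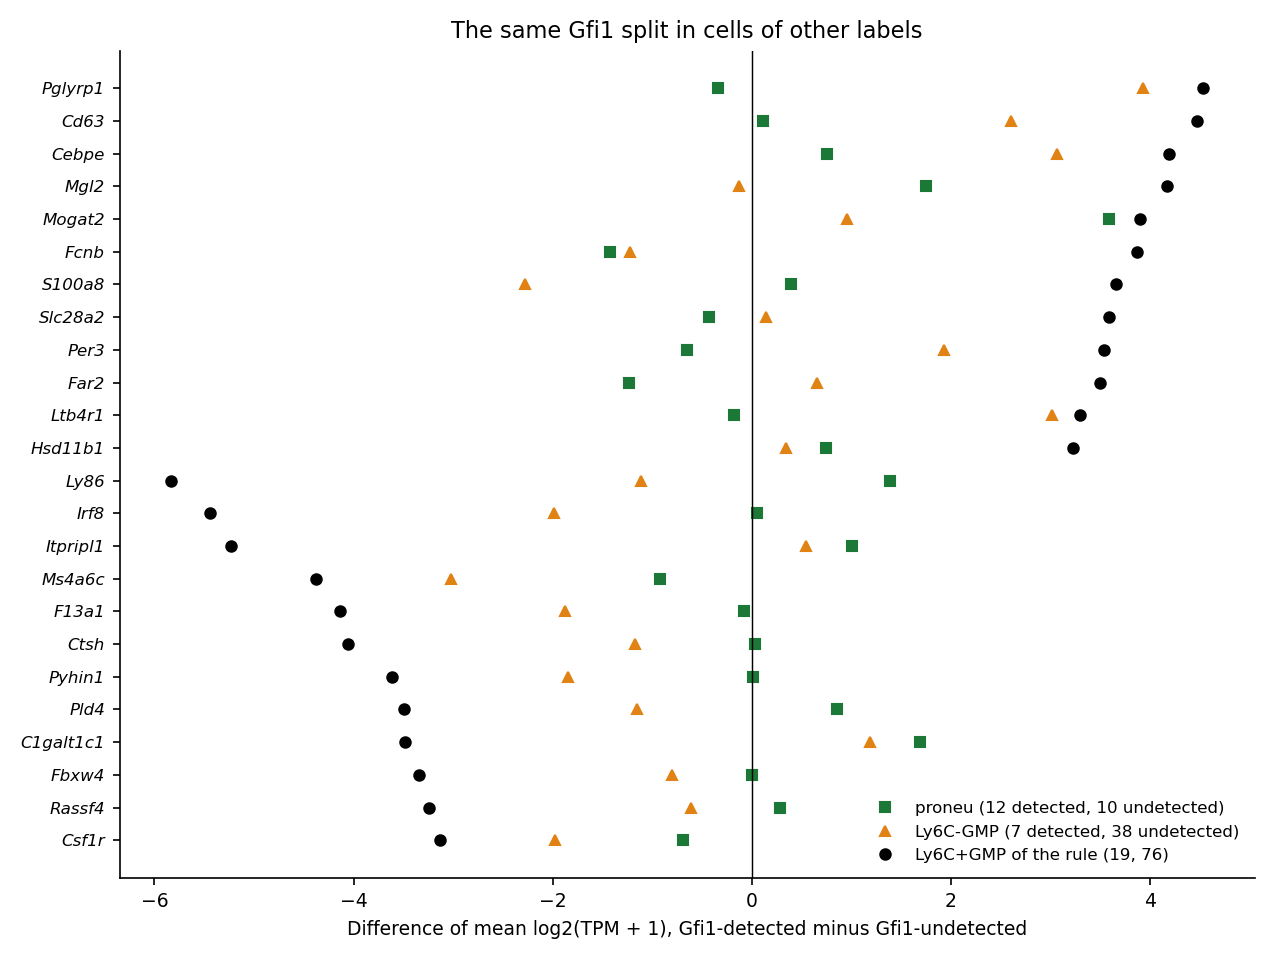
Differences of mean log2(TPM + 1), Gfi1-detected minus Gfi1-undetected cells, of the 24 named genes (rows) in Ly6C+GMP cells of the rule (black circles, the contrast that named them), proneu cells (green squares) and Ly6C-GMP cells (orange triangles). Proneu values scatter about 0, and most Ly6C-GMP values lie on the side of the Ly6C+GMP value but nearer 0.

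Levels in the other labels place the Gfi1-detected cells as follows. Irf8 had a mean of 26.8 TPM in Gfi1-detected and 496 TPM in Gfi1-undetected Ly6C+GMP cells, and 1.08 TPM in proneu, 1.25 TPM in preNeu and 339 TPM in tpMo cells. Cd63 averaged 1455 and 370.0 TPM in Gfi1-detected and Gfi1-undetected Ly6C+GMP cells, 1815 TPM in proneu, 847 TPM in preNeu and 22.98 TPM in tpMo cells. F13a1 averaged 93.8 TPM (55.6 TPM without the highest cell) in Gfi1-detected and 630.4 TPM in Gfi1-undetected Ly6C+GMP cells, 48.5 TPM in proneu, 0.854 TPM in preNeu and 1915 TPM in tpMo cells. Pglyrp1 reached 1305 TPM in preNeu cells, against 259 TPM in Gfi1-detected and 62.6 TPM in Gfi1-undetected Ly6C+GMP cells. The preNeu cells were gated on Gr1, CD11b, c-Kit and CXCR4 and the tpMo cells on CD115, CXCR4 and Ly6C, so these levels are set side by side without a test.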

How the data were processed

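Single mouse bone marrow cells were profiled by SMART-seq2. The authors deposited 1 table of TPM values with a column per cell; the tools listed, per the submitters' processing notes, are RSEM 1.2.19 with the build GRCm38. Aligner and annotation: not given in the sources used here. The unit holds no depth, so read counts are unknown and the precision rests on the number of cells. RSEM shares out reads of near copies by estimate.

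Values were computed with Python 3.11.15, numpy 2.4.6, pandas 2.3.3 and scipy 1.17.1, and drawn with matplotlib 3.10.9. Genes with at least 1 TPM in at least 10 of the 95 cells entered, a filter blind to the groups. The difference of mean log2(TPM + 1) was tested on simulated data. Changes were planted only in abundant genes detected in most cells, with the same detection in both groups. Genes that differ in detection, such as Cebpe, Mogat2 and Fbxw4, were not covered by it. Named genes were Gfi1, Cebpe and Irf8; the 12 furthest each way with a mean of at least 20 TPM and detection in at least 50% of the higher group's cells and the same direction of mean TPM, without predicted and ribosomal protein genes; and up to 3 members per list with at least 5 TPM. Members of the 20 lists named beyond this, such as Elane, Ngp and Ccr2, were picked by function, with their values already seen. The members and lists were chosen with earlier results of these data known. Positions are from GENCODE M21, which held 39469 of 43280 symbols (91.2%). No doublets were called and no cell was left out. No 2 cells had identical values. Alternatives were pseudocounts, filter, scalings, Gfi1 limits, gene number and single cells left out. The values of 1 list member are not reported here.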

Additional observations from a re-analysis of the deposited data

Results flagged for a closer look

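Small groups of 4 to 10 cells outside the rule were checked for a single cell far from the others, in 13 combinations of group and gene. The limits mark about 1 in 20 only where values follow a normal distribution. TPM of single cells with many values of 0 does not, and a lone positive cell among cells at 0 TPM is always marked. The number of marks therefore cannot be set against a rate by chance. Irf8 stood out in 4 combinations. The 13 also cover Gfi1 and Cebpe, so Irf8 itself was checked in fewer. Its highest value was 205 TPM among 7 Gfi1-detected Ly6C-GMP cells, where the next was 4.29 TPM. It was 373 TPM among the 6 Gfi1-detected Ly6C+GMP cells of other titles, where the next was 0.91 TPM, and 67.03 TPM among the 4 Gfi1-undetected ones, where the others were at 0 TPM. It was 5.04 TPM among 10 Gfi1-undetected proneu cells, with the next at 1.24 TPM. Cebpe reached 1193 TPM in 1 of 5 Gfi1-detected preNeu cells, where the next had 433 TPM. In preNeu cells, whose genes are given only as levels and were not compared by Gfi1 detection, Gfi1 was detected in 5 of 31 cells, against 0 of 47 CMP and 0 of 31 tpMo cells.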

How the results depend on the processing

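No paired analysis was possible because all cells count as 1 sample and their numbers pair nothing. The counts of genes past 1 log2 unit depended on the scale. With a pseudocount of 10 TPM 176 genes were higher and 160 lower, and with 0.1 TPM 1583 and 1379. As a log2 ratio of mean TPM 687 were higher and 1357 lower, and among cells with at least the median number of detected genes (11 Gfi1-detected, 37 Gfi1-undetected) 1119 were higher and 1127 lower. The 24 named genes of both ends kept their direction and stayed past 1 unit in each of the 29 alternatives, including each Gfi1-detected cell left out in turn, Gfi1 limits of 10 TPM and of above 0 TPM, and the cell with over 1000 TPM of Ngp left out. Their smallest difference was 1.49, for Mgl2 as a ratio of means. These 24 genes were picked as the furthest in the same cells, so their stability is no independent support. The naming rule also required the same direction of mean TPM, which fixed their direction as a ratio of means in advance. Among the 65 named genes 1 that was called turned: Bop1, of the ribosome biogenesis list, was −0.066 as a ratio of means. With 1 Gfi1-detected cell left out, 818 to 904 genes were higher and 697 to 822 lower, and the list medians ran from −1.64 to −1.40 for monocyte, 0.95 to 1.19 for primary granule and 0.93 to 1.28 for neutrophil regulator genes. Medians near 0 changed sign for the Gfi1 partners (−0.18 to 0.20), mitosis (−0.17 to 0.23), immediate early and heat shock (−0.13 to 0.08) and ribosome biogenesis (−0.04 to 0.16). Medians that kept their sign but moved by over 1.5 times were those of DNA replication (−0.34 to −0.02), lymphoid (0.13 to 0.65), dendritic cell (−0.29 to −0.11), basophil and mast cell (0.10 to 0.40), erythroid and megakaryocyte (0.02 to 0.09) and interferon response genes (−0.08 to −0.04), of genes reported as repressed by Gfi1 (−0.62 to −0.32) and of monocyte and dendritic regulators (−0.56 to −0.19). In proneu cells, with a pseudocount of 10 TPM added after seeing the data, 5 of the 12 lower genes were below 0 in place of 3. With 19 and 76 cells of 1 sample there is no replicate check, and genes below a few TPM cannot be told from undetected ones.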

Other observations

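The other 10 cells labelled Ly6C+GMP, from a separate stretch of titles, were too few on one side for the comparison, which needed 5. Gfi1 was detected in 6 of them, and Cebpe in 8, at medians of 11.2 and 61.9 TPM. Irf8 was detected in 2 of the 10. The cell with 373 TPM of Irf8 also had 49.3 TPM of Gfi1, 942 TPM of Ly86 and 0 TPM of Cebpe and Pglyrp1. The other, with 67.03 TPM of Irf8, had 456 TPM of Ly86 and 0 TPM of Gfi1 and Cebpe. Per3 was detected in all 10 cells, with a mean of 106 ± 79.6 TPM, and Cd63 in all 10, with a mean of 1399 ± 972 TPM. Over all labels Gfi1 was detected in 20% of the 95 Ly6C+GMP cells (exact 95% interval 12.49 to 29.5%), 54.5% of proneu (32.2 to 75.6%), 15.6% of Ly6C-GMP (6.49 to 29.5%) and 16.1% of preNeu cells (5.45 to 33.7%). The 0 of 47 CMP and 0 of 31 tpMo cells allow shares of up to 7.55% and 11.2%, the upper ends of exact intervals.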
